A study of Mus musculus with 8 samples.

Results

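The wild-type hearts described here are the control arm of a study of Tbx20, a T-box transcription factor of the developing heart, and make up 4 of its 8 RNA-seq libraries. They were picked by the genotype given in the sample labels, and no measured value entered that choice. Every library is a pool of whole hearts from 3 wild-type embryos at embryonic day 9.5 (E9.5), so each level is an average over 3 hearts and over all the cells in them. The labels give neither the strain nor the sex of the embryos. The other 4 libraries, from hearts of the Tbx20EH1Mut genotype, were not used, and no comparison of genotypes was made.

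At E9.5 the mouse heart is a looped, beating tube whose outer wall of cardiomyocytes is thickening into chambers. The wall is lined by endocardium, a specialised endothelium, and the matrix between both layers is the cardiac jelly, from which the valves later form. Cells are still being added at the inflow and outflow ends, the epicardium is beginning to spread over the surface from the proepicardium, and the blood passing through holds primitive red cells made in the yolk sac. RNA from whole hearts mixes all of these, and in such bulk samples fewer cells of a type and less RNA per cell cannot be told apart.

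Transcript abundance was expressed as TPM, the count of a gene divided by its summed exon length and scaled so that each library adds up to 1000000. For 16 of the 181 protein-coding genes named here the summed length is over 2 times the longest coding transcript, Tnnt2, Myl4, Tnni1, Csrp3, Tnni3, Tpm1, Myl2 and Myl3 among them, and per base of that transcript their levels would be higher. Total counts were 33359322, 46467914, 49523086 and 44479493 in libraries 1 to 4, and every pair of libraries differed by more than sampling noise. Of the 49315 genes listed, 13193 (26.8%) reached 1 TPM in all 4 libraries and are called detected below. Among the 21811 protein-coding genes the detected share was 53.2%, which is the background for the counts of detected genes given for each group. A mean of at least 10 TPM was reached by 8245 genes (16.7%), of at least 100 TPM by 1471 (2.98%) and of at least 1000 TPM by 146 (0.296%). The 146 genes of the highest class held 40.9% of all TPM, and the 6548 genes between 1 and 10 TPM held 2.63%. Genes are named by a rule on their level and spread within each list, and 43 further list members were added after their values were seen. In what follows, values for libraries 1 to 4 are given in that order, and means are given ± SD over these libraries (n = 4).

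Libraries 1 and 2 stood apart from the others, in opposite directions. Among 7840 protein-coding genes with a mean of at least 10 TPM, library 2 was the highest for 5716 (72.9%) and library 1 the lowest for 5275 (67.3%). The reverse was rarer, with library 1 the highest for 17.5% and library 2 the lowest for 14.2%. The correlation of log2 TPM over detected genes was 0.992 between libraries 3 and 4 and 0.939 between libraries 1 and 2, a description across genes, which are not independent replicates. The deviation followed exon length. In the sixth of these genes with the shortest exons (93 to 1920 bases) the median level in library 1 was 1.06 times the geometric mean of the 4 libraries, and in library 2 it was 0.946 times. In the sixth with the longest (6855 to 116825 bases) these medians were 0.779 and 1.44, while libraries 3 and 4 stayed between 0.931 and 0.998 in both. The spread of a gene between libraries, given as the coefficient of variation (CV, the SD as a percentage of the mean), had a median of 12.5% for the shortest genes and 28.4% for the longest. With the length trend taken out, the same medians were 10.7% and 12%. What set these libraries apart was not tested. A gene group of long transcripts that is high in library 2, or of short transcripts that is high in library 1, moves with this trend, and library 3 and 4 values are named where it matters.

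**Figure D1:**
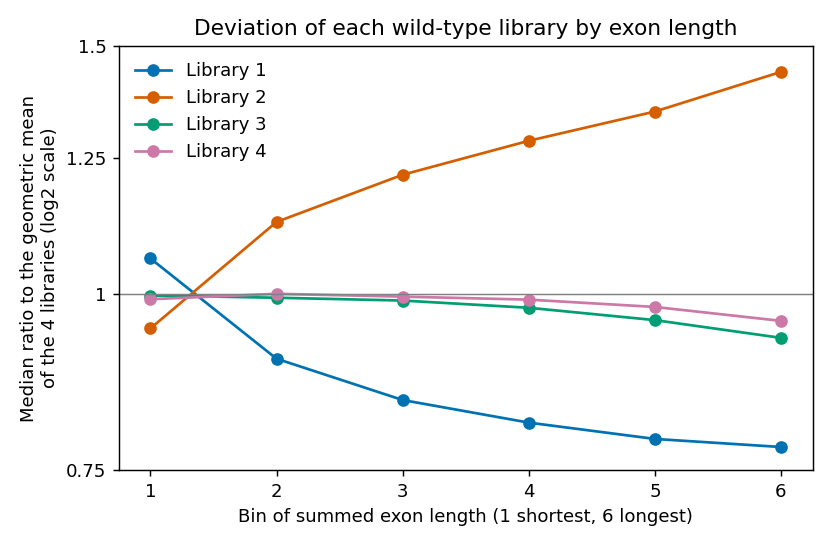
Median ratio of each library's TPM to the geometric mean of the 4 wild-type libraries (vertical axis, log2 scale) for protein-coding genes with a mean of at least 10 TPM in 6 bins of summed exon length, from the shortest (bin 1) to the longest (bin 6). Library 2 rises from 0.946 to 1.44 and library 1 falls from 1.06 to 0.779, while libraries 3 and 4 stay near 1.

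The highest level in the table belonged to no heart gene but to Gm23935, a 57-base feature annotated as a microRNA at chr16:11144125-11144181 (GRCm38), with 61604, 14151, 69906 and 72676 TPM. It is shown with its near copies because they bear on how far its level can be read. Gm24270 at chr9:56223715-56223771 has the same 57 bases, as does Gm24245, and Gm24187 at chr13:9834469-9834525 differs by the single change G11A, counted from the first base of Gm23935 and printed in capitals, as given by the GENCODE M21 transcripts, 5′ to 3′.
Gm23935: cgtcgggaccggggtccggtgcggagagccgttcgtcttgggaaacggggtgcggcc
Gm24270: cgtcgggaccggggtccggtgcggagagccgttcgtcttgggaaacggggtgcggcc
Gm24187: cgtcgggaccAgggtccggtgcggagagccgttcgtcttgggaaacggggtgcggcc
Reads from identical copies cannot be assigned to 1 of them, so the levels of these features are uncertain. Gm42418, which RefSeq lists as a pseudogene of 18S ribosomal RNA, was at rank 7 with 8163 ± 4483 TPM. Both were lowest in library 2, Gm42418 at 1680 TPM there against 8662 to 11388 in the others. Together with Gm26917, Gm24270, Gm24187 and Mir6236 they took 7.9, 1.78, 9.25 and 9.24% of TPM, but only 0.966, 0.158, 1.09 and 1.11% of counts. Of the 6 features, Gm23935, Gm24270 and Gm24187 are 57 bases long and Mir6236 123, and a short length raises TPM over the share of counts. The TPM of every other gene is scaled down by the same share, which is why a total over protein-coding genes alone was tried as an alternative.

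Below Gm23935 came genes of contraction, mitochondria and protein synthesis. Actc1, cardiac alpha-actin, stood at 14475, 18186, 18025 and 19551 TPM and Myl7, the atrial-type regulatory light chain of myosin, at 18485, 15663, 19042 and 16390. Which of them was higher differed between libraries, with Actc1 ahead in 2 of 4, so their means of 17559 ± 2167 and 17395 ± 1624 TPM do not separate. Next came the mitochondrially encoded mt-Nd1 (10932 ± 616 TPM), mt-Cytb (8771 ± 719) and mt-Co1 (8542 ± 2276), the ribosomal protein gene Rplp1 (7784 ± 2257), the imprinted noncoding RNA H19 (7188 ± 1567), the elongation factor gene Eef1a1 (6844 ± 1055) and the smooth muscle alpha-actin gene Acta2 (5599 ± 477). Of these, mt-Cytb was above mt-Co1 in only 1 of 4 libraries, so the pair do not separate. Rplp1 and Eef1a1 share 30% and 26.7% of their 100-base windows with other genes, mostly pseudogenes, so their levels are uncertain. The first blood gene was the embryonic beta-like globin Hbb-y, at rank 14 with 2816, 2932, 5165 and 7354 TPM. The 10 most abundant genes together held 14.8% ± 3.09 of TPM and the 100 most abundant 35.5% ± 4.08. Over protein-coding genes alone these shares were 10.5% ± 0.495 and 31.8% ± 2.04.

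**Figure D2:**
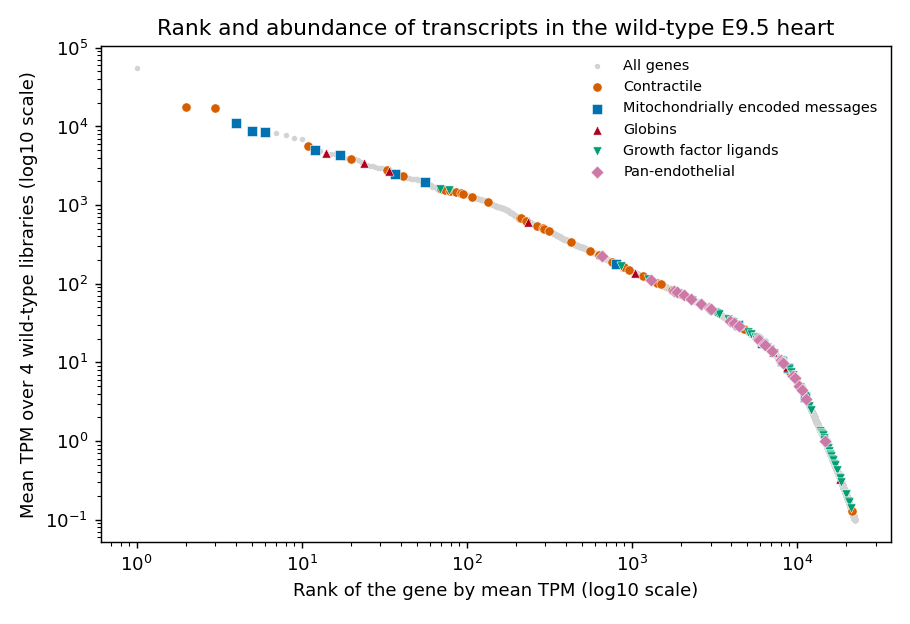
Mean TPM over the 4 wild-type libraries (vertical axis, log10 scale) against rank (horizontal axis, log10 scale) for all genes with a mean of at least 0.1 TPM (grey), with the members of 5 gene groups in colour. Actc1 and Myl7 hold ranks 2 and 3 and mt-Nd1 rank 4, 3 embryonic globins lie between ranks 14 and 34, and the endothelial genes lie at 223 TPM, the level of Plvap, or lower.

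Contractile genes were the most abundant group of the heart's own function. The 41 genes of the thick filament, thin filament and Z-disc summed to 6.81, 6.93, 7.08 and 7.0% of TPM, a mean of 6.96% ± 0.113 (CV 1.62%), and 39 of them were detected, all but Myom2 and the intercalated disc gene Xirp2 (0.0708 TPM). Of these genes, 15 exceeded 1000 TPM. The spread of the sum rests on the total used. The share was 7.84% ± 0.352 over protein-coding genes alone, 7.54% ± 0.304 without features under 200 bases and 6.19% ± 0.302 by counts. Between libraries the members had a median CV of 18.2%, with 22 of the 39 members above 1 TPM highest in library 2 and 11 highest in library 1. Library 2 was thus the highest for most of them, beside 72.9% of all protein-coding genes above 10 TPM. It was also the lowest for 12 of them, beside 14.2%.

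In the thick filament, the mean levels of the light chains were above those of the heavy chains, but not in every library. After Myl7 came the ventricular-type regulatory chain Myl2 (3382, 2360.2, 2544 and 2805 TPM), the essential chains Myl4 (3040.3, 1933, 2591 and 2454) and Myl3 (2708, 1841, 2367 and 2456), and the heavy chains Myh6 (1019.7, 2327, 1539 and 1504) and Myh7 (894, 2282, 999.6 and 1351). In library 2 Myl4 and Myl3 were below both heavy chains, and in library 3 Myl4 was above Myl2. The order of Myl2 and Myl4 also rests on the length, 1950 and 4637 bases. Their longest coding transcripts have 889 and 943 bases, and per base of these Myl4 would be above Myl2 in all 4 libraries. Myl7 was 5.46, 6.64, 7.48 and 5.84 times Myl2 within the 4 libraries, a mean log2 ratio of 2.66 ± 0.20. The size of this ratio rests on the length used, 590 bases for Myl7 and 1950 for Myl2. The mean log2 ratio was 0.93 by counts alone, 1.52 per base of the longest coding transcript, and 3.10 with a fragment of 200 bases allowed for, and Myl7 was the higher each time. An exact two-sided sign-flip permutation test over 4 libraries gave p = 0.125, the smallest p that 4 libraries allow, and the same p for each of the 3 ratios tested here. Myh7, the beta heavy chain, was below Myh6, the alpha heavy chain, in all 4 libraries by TPM, at 0.877, 0.981, 0.65 and 0.898 times its TPM. This order too rests on the length, 8586 bases for Myh7 and 6347 for Myh6, whereas the longest coding transcripts of both are 6230 and 6113 bases. By counts alone the mean log2 ratio of Myh7 to Myh6 was 0.19, and per base of the longest coding transcript it was 0.16, so these data do not order the heavy chains. Of the 100-base windows of the Myh7 transcript, 13.9% also occur in other genes, Myh6 among them. Mybpc3, which binds myosin in the sarcomere, stood at 1080.3 ± 321 TPM, the giant protein gene Ttn at 26.3 ± 12.5 and the M-band gene Myom2 at 0.128.

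In the thin filament, Actc1 exceeded the skeletal alpha-actin gene Acta1 by 11.4, 10.1, 12.7 and 13.5 times and Acta2 by 2.86, 2.92, 3.24 and 3.53 times. All 3 striated and smooth muscle alpha-actins were above 1000 TPM, Acta1 at 1483 ± 223. Among the troponins, the calcium-binding Tnnc1 had 5202, 3016, 3869.5 and 3570.1 TPM, the slow skeletal inhibitory subunit Tnni1 1656, 1198, 1428 and 1402, and the cardiac tropomyosin-binding subunit Tnnt2 1173, 1208, 1377 and 1337. Tnni1, the fetal form, was 1.89, 2.54, 2.01 and 2.17 times the adult cardiac form Tnni3 (677 ± 168 TPM). Tnnt2 had a CV of 7.76%, and the tropomyosin gene Tpm1 a CV of 6.91% around 1572 TPM, so both were tighter than most of their list. The Z-disc and its cytoskeleton were led by Ankrd1, a titin-associated repeat protein, at 1524 ± 181 TPM, then the intermediate filament gene Des (683 ± 39.3), the small heat shock protein gene Cryab (630.04 ± 28.1) and Csrp3 (546 ± 69.1). Cryab and Des had the smallest CVs of all detected contractile genes, 4.46% and 5.76%. Vcl, which codes for vinculin, had the widest spread of all contractile genes above 1 TPM, at 3.63, 71.4, 26.2 and 25.3 TPM. It was lowest in library 1 and highest in library 2, and its CV of 90.0% was still 72.5% with the length trend removed.

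**Figure D3:**
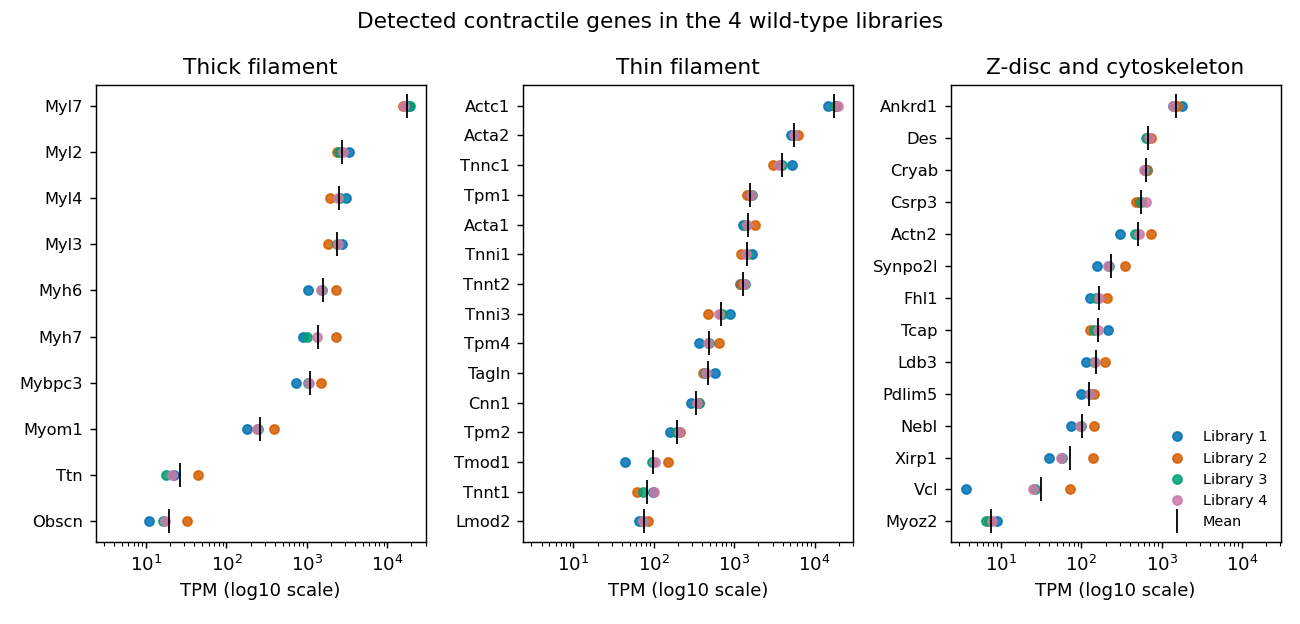
TPM (horizontal axis, log10 scale) of the 39 detected contractile genes, ordered by mean within the thick filament, thin filament and Z-disc groups, with 1 point for each of the 4 wild-type libraries and a vertical bar for their mean. Tnnt2, Tpm1, Des and Cryab have closely grouped points, whereas Vcl runs from 3.63 TPM in library 1 to 71.4 in library 2.

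The stretches upstream of Actc1, Myl7 and Acta2 are shown because these 3 genes had the highest mean TPM of the contractile list. The place of Acta2 rests on summed exon length. Per base of the longest coding transcript Myl4, Tnnt2 and Myl2, among others, would stand above it. They cover the 120 bases before the start of transcription, 5′ to 3′ on the strand of the gene, from RefSeq on GRCm38.p6: Actc1 at chr2:114052876-114052995, Myl7 at chr11:5898783-5898902 and Acta2 at chr19:34255374-34255493, all on the minus strand. Capitals mark an exact match to the CArG box, a site of serum response factor: CC, then 6 bases that are each A or T, then GG. Forms that differ from it by a base were not counted.
Actc1: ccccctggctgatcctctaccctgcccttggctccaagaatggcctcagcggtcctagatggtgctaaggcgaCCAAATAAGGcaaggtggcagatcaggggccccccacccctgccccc
Myl7: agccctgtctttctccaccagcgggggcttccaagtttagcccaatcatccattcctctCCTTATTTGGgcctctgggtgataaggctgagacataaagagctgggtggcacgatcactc
Acta2: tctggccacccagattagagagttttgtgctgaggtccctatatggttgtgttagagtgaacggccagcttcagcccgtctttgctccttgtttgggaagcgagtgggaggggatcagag
The match begins 47 bases before the start in Actc1 and 61 bases before it in Myl7, and the window of Acta2 holds no exact match. An exact match lies in this window in 7 of the 35 contractile genes that the promoter table holds, namely Actc1, Myl7, Myl3, Acta1, Myom1, Fhl1 and Ldb3, and in 0.858% of the 27025 genes of the whole table. Of the 128 promoters of genes with at least 1000 TPM, 3.91% hold one. A match is a description of the letters and not of a bound site. Srf, which codes for the factor itself, stood at 149 ± 34.6 TPM.

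The chamber genes were read for the level of each chamber's markers in the pooled tissue. The atrial and inflow list summed to 21764, 17897, 21896 and 19071 TPM, of which Myl7 alone was 86.3%, so this sum says little of the others. After Myl4, the inflow genes fell to 66.1 ± 20.9 TPM for the potassium channel gene Kcnj5 and 39.3 ± 21.5 for the pacemaker channel gene Hcn4. The sinus node factor gene Shox2 stood at 18.1, 8.42, 16.5 and 5.59 TPM. Sln, the atrial regulator of the calcium pump in the later heart, was at 1.07, 0.289, 0.406 and 0.292 TPM and was the only gene of the list not detected. The ventricular list had 12 of 12 genes detected, and held Hand2 (203 ± 27.4 TPM), Hand1 (129.5 ± 30.8), Irx4 (110.03 ± 30.8) and Hey2 (40.6 ± 7.31) below Myl2, Myl3 and Myh7. Trabecular genes were led by the natriuretic peptides Nppa, at 1544, 1254, 1101 and 1410.3 TPM, and Nppb, at 868, 551, 636 and 734, and Nppa was the higher in all 4 libraries, by 1.78, 2.27, 1.73 and 1.92 times. The ligand gene Bmp10 stood at 44 ± 11.2 TPM and the gap junction genes Gja1 and Gja5 at 72.4 ± 12.9 and 25.6 ± 5.35. In the atrioventricular canal list Tbx2, Bmp2, Gjc1, Rspo3, Msx1, Msx2 and Tbx3 were detected, between 15.6 and 47.4 TPM, and the T-type channel gene Cacna1g was not, at 0.531. Outflow tract genes lay between 4.63 TPM for Fgf10 and 62.7 ± 12.4 for Bmp4, all 11 of them highest in library 2, beside 72.9% of protein-coding genes above 10 TPM. Their summed TPM had a CV of 31.7%, or 18.1% with the length trend removed.

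In summed TPM, genes of calcium handling lay below those of the thick and of the thin filament, though single members overlapped. Of these genes, 15 of 16 were detected, Sln again excepted. Calr, which codes for the lumenal calcium-binding protein calreticulin, stood at 947 ± 139 TPM and the calcium pump gene Atp2a2 at 386, 992, 676 and 700.03. The calsequestrin of skeletal muscle, Casq1, had 561, 516, 518 and 582 TPM against 4.35, 4.95, 2.99 and 5.18 for the cardiac form Casq2, a ratio of 129, 104, 174 and 112. The pump inhibitor gene Pln, which shares 57.1% of its windows with other genes, was at 141 ± 37.1 TPM and the release channel gene Ryr2 at 34.6 ± 14.5. Slc8a1, the sodium-calcium exchanger, ran from 35.6 TPM in library 1 to 379 in library 2, with 137 and 142 in libraries 3 and 4, and its CV of 84% was the widest of its list among genes of at least 1 TPM. Its level rests on a length of 2934 bases, whereas its longest coding transcript has 18464, by which it would be lower.

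Nearly all cardiac transcription factor genes were detected. Of the 37 listed, Heyl (1.34, 1.18, 0.904 and 0.989 TPM) alone fell short of 1 TPM in a library, and 32 had a mean of at least 10 TPM. Nkx2-5, the homeobox gene of the cardiac lineage, was the highest and the tightest, with 775, 836, 835 and 812 TPM and a CV of 3.52%. Hey1 and Irx5 came next in tightness, with CVs of 3.68% and 4.49%. The muscle methyltransferase gene Smyd1 (303 ± 67.1), the homeodomain-only gene Hopx (268 ± 28.8) and Hand2 followed, and Nkx2-5 exceeded Smyd1 by 3.27, 2.11, 2.91 and 2.78 times. Hand2 and Gata4 (199.6 ± 57.1 TPM) did not separate, each being higher in 2 libraries. Gata4 was above Gata6 (108 ± 22.4) in all 4. Tbx20, the gene altered in the other arm of the study, had 65.3, 95.1, 77.3 and 78 TPM, above Tbx5 (56.5 ± 10.8) and Tbx2 (47.4 ± 13.7). Tbx1, a gene of pharyngeal tissue and the second heart field, was the widest, at 1.86, 22.3, 2.3 and 2.97 TPM, and library 2 alone was above 3 TPM. Isl1, which marks cells still being added to the tube, had 14.6, 19.5, 7.69 and 10.1 TPM. Summed over the list, transcription factors were 3.07, 2.94, 2.95 and 2.9 times the pan-endothelial genes, the most even of the ratios between summed lists that were computed.

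Growth factor ligands summed to 0.394, 0.538, 0.388 and 0.409% of TPM (mean 0.432% ± 0.0712), and 41 of 86 were detected, beside 53.2% of all protein-coding genes. A pair of genes, Igf2 and Mdk, held most of the sum. Igf2, an imprinted growth factor of the embryo, had 1102, 2412, 1409.8 and 1524 TPM. Mdk, which codes for the heparin-binding factor midkine, had 1809, 1506, 1392 and 1444 TPM. Igf2 stood at 0.609, 1.6, 1.01 and 1.06 times Mdk and was ahead in 3 of 4 libraries, so the pair do not separate beyond the spread of Igf2. The annotated transcript of Igf2 shares 75.7% of its 100-base windows with Gm49394, so its counts are uncertain. Igf1 stood at 7.93, 6.99, 6.26 and 6.47 TPM, and Igf2 was 139 to 345 times higher.

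Among BMP and TGF-beta ligands, 10 of 17 were detected. Bmp7 was the highest with 86.1, 164, 104 and 110.5 TPM, followed by Bmp4, Tgfb2 (48.5 ± 9.86 TPM), Bmp10 and Bmp2 (43 ± 4.17), which signals from the atrioventricular canal to the cushions. Bmp10 and Bmp2 were each higher in 2 libraries. FGF ligands were sparse. Fgf8, made by the second heart field, had 18.1, 32, 19 and 22.1 TPM, Fgf10 3.25, 6.56, 5.0 and 3.7 and Fgf9 3.19, 2.17, 2.34 and 2.38, and none of the other 15 members reached 1 TPM in every library. Fgf3 did so in library 2 alone, with 0.116, 3.8, 0.272 and 0.189 TPM. Fgf21, a hormone-like member of the family, had a count of 0 in all 4 libraries, and a count of 0 allows up to 0.212 TPM per library (3 counts, for counting error only). Of the 19 Wnt genes 5 were detected, with Wnt2 at 67.8, 103, 89.1 and 62.2 TPM, Wnt11 at 28.4, 45.1, 32.2 and 36.1 and Wnt5a at 19.1 ± 5.7. Vascular ligands had 14 of 16 detected. Vegfb stood at 158, 191, 157 and 169 TPM and Vegfa, the ligand needed for endothelial growth, at 63.8, 90.9, 70.7 and 82.3, and Vegfb was about 2.21 times higher. Angpt1 was at 49.2 ± 3.57 TPM, the Notch ligand genes Jag1 and Dll4 at 32.4 ± 9.69 and 10.8 ± 3.51, and the endothelial factor gene Nrg1, which acts on the trabecular muscle, at 2.8 ± 0.97.

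Receptors for these factors were widespread and low. Of 42 receptor genes 39 were detected, all but Fgfr4, Egfr and Met, with a median of 9.6 TPM over the list, and their sum was exceeded by that of the ligands 5.89, 3.73, 4.93 and 4.57 times. Igf2r, the receptor that clears IGF2, led with 179, 524, 235 and 288 TPM, and the neuregulin co-receptor gene Erbb2 stood at 63.8 ± 19.4. Bmpr1a had 48.4 ± 12.7 TPM and Fgfr1 20.5 ± 7.47. Smo, the signal transducer of the hedgehog pathway, was the widest, from 11.7 TPM in library 1 to 51.7 in library 2. Library 2 was highest for 39 of the 40 receptors above 1 TPM, beside 72.9% of protein-coding genes above 10 TPM, and this list has a median exon length of 6184 bases. Its summed TPM varied with a CV of 36.1%, or 11.2% with the length trend removed.

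Endothelial genes were a small share of the transcripts. The 27 pan-endothelial genes summed to 0.0872, 0.131, 0.103 and 0.106% of TPM (mean 0.107% ± 0.0183), and 26 were detected, all but Robo4. Plvap, a component of endothelial fenestrae, was the highest with 177, 265, 220.2 and 229.97 TPM, then the TGF-beta co-receptor gene Eng (112 ± 23.9), Egfl7 (81.4 ± 10.6), the junction gene Cdh5 (50.6, 124, 70.1 and 68.1) and Tie1 (71.1 ± 14.5). Pecam1 had 31.3, 38.3, 32.7 and 34.1 TPM and Kdr, the main VEGF receptor gene, 19.7, 49.1, 29.8 and 29.2. Ramp2 and Icam2 varied least, with CVs of 3.34% and 3.94%, though Ramp2 shares 72.8% of its windows with Vps25, and Notch1 most, from 3.04 to 13.5 TPM. With the length trend removed the CV of the summed list went from 17.1% to 2.77%. The endocardial and cushion genes summed to 666, 1153, 782 and 807 TPM, with the matrix linker gene Hapln1 at 153, 200.2, 174 and 180.5, the shear-sensitive factor gene Klf2 at 69.2, 75, 78.3 and 80.9, Npr3 at 41.5 ± 7.27 and the endocardial factor gene Nfatc1 at 18.1 ± 7.62. Sox9, expressed in cushion mesenchyme among other tissues, was 37.4 TPM in library 1 and 12.5 to 16.6 in the others.

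Matrix genes of the cardiac jelly were led by Sparc (395 ± 66.1 TPM), Col2a1 (151, 548, 246 and 285), Hapln1 and the fibronectin gene Fn1 (102, 312, 106 and 136). Versican and the hyaluronan synthase that build the jelly stood at 97.8 ± 48.3 TPM for Vcan and 39.3 ± 12.7 for Has2. All 20 listed genes were detected, and 19 of them were highest in library 2, beside 72.9% of protein-coding genes above 10 TPM. Of 44 collagen genes 25 were detected, the basement membrane chains Col4a1 and Col4a2 at 149.97 ± 78 and 106 ± 61.1 TPM, and the fibrillar chain Col1a1 at only 11.7 ± 5.23. The collagen sum was 547, 1631, 781 and 883 TPM, a CV of 48.8% that was 23.2% with the length trend removed.

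Globin levels differed between libraries by more than those of the other abundant groups, and the lists of globins kept that spread with the length trend removed. Globins took 0.639, 0.816, 1.36 and 1.76% of TPM (mean 1.14% ± 0.514), and their CV of 44.9% was 47.6% without the trend. The embryonic beta-like genes Hbb-y and Hbb-bh1 and the embryonic alpha-like Hba-x supplied most of it. Hbb-bh1 had 1485, 2699, 4290.1 and 5158 TPM and Hba-x 1543, 2038, 3279 and 3899. Together with Hbb-y all 3 were lowest in library 1 and highest in library 4, and the embryonic sum was 2.81 times higher in library 4 than in library 1. Hbb-bh2 stayed at 0.334 TPM. The adult genes Hba-a1 (404, 373, 621 and 1070.3) and Hba-a2 (129.5, 99.8, 192 and 127) share 74.5% of the 100-base windows of Hba-a2 with each other, so their levels and sum are uncertain, and the adult beta genes Hbb-bs and Hbb-bt were at 13.5 ± 5.74 and 8.69 ± 2.48 TPM and share windows in the same way. Embryonic globins exceeded the adult ones 10.6, 15.7, 15.1 and 13.4 times, a mean log2 ratio of 3.76 ± 0.25 (exact two-sided sign-flip p = 0.125). The ratio of beta-like to alpha-like globins kept to 2.08, 2.25, 2.32 and 2.46. Most other red cell genes were also lowest in library 1 and highest in library 4. Alas2, the erythroid enzyme of haem synthesis, had 4.23, 13.8, 13.4 and 22.1 TPM and the anion exchanger gene Slc4a1 2.93, 7.07, 6.36 and 10.4, and library 1 was the lowest for 14 of 15 red cell genes above 1 TPM, beside 67.3% of protein-coding genes above 10 TPM. Library 4 was the highest for 12 of them, beside 4.89%. Alas2 and Slc4a1 were higher in library 2 than in library 3, unlike Hbb-y, Hbb-bh1 and Hba-x. Platelet and white cell genes were low. Pf4 had 17.3 ± 3.04 TPM and Lyz2 17.9 ± 2.84, while the leukocyte gene Ptprc was at 0.0103, and of the 14 listed genes Lyz2, Pf4, Coro1a, Fcer1g and Itga2b were detected. The amount of blood left in each pool was not measured.

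**Figure D4:**
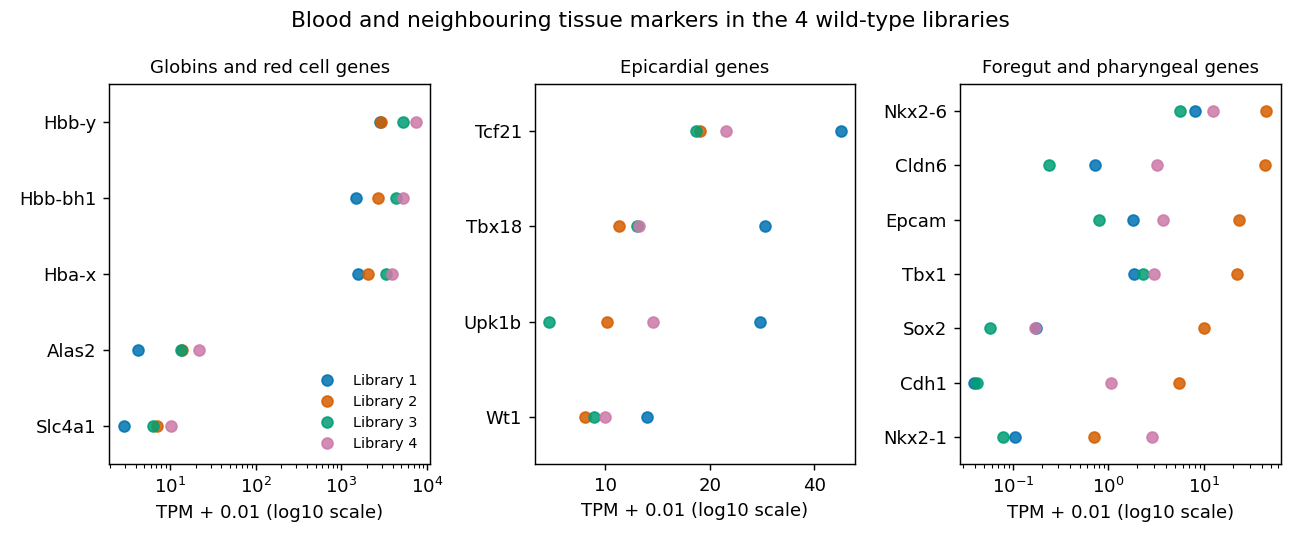
TPM with 0.01 added (horizontal axis, log10 scale) of embryonic globins and red cell genes (left), epicardial genes (middle) and foregut or pharyngeal genes (right), with 1 point for each of the 4 wild-type libraries. Hbb-y runs from 2816 TPM in library 1 to 7354 in library 4, Tcf21, Upk1b and Tbx18 are highest in library 1, and Cldn6, Epcam, Sox2 and Tbx1 are highest in library 2.

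The starts of the embryonic globin genes are shown because these genes moved together between libraries. The promoter table held Hbb-y and Hba-x, and the windows are the 120 bases before the start from RefSeq on GRCm38.p6, at chr7:103853208-103853327 on the minus strand and chr11:32276480-32276599 on the plus strand, 5′ to 3′. Capitals mark CACCC, a site of erythroid Kruppel-like factor, CCAAT, a common promoter element, TATAAA, the letters of a TATA box, and GATAA, the core of a site of GATA factors. All were searched on both strands.
Hbb-y: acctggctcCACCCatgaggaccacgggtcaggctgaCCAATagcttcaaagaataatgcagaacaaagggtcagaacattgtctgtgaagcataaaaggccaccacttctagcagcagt
Hba-x: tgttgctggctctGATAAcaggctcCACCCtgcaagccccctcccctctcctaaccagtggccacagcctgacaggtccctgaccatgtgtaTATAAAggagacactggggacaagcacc
Both windows hold CACCC, as do 31.7% of the 32851 promoters in the table. Of the 128 promoters of genes with at least 1000 TPM, 37.5% hold it. CCAAT is in the window of Hbb-y, and in 21.3% of all windows and 29.7% of those 128. TATAAA begins 28 bases before the start of Hba-x and is in 6.34% of all windows and 3.91% of those 128. GATAA begins 107 bases before the start of Hba-x, and 10.5% of all windows and 9.38% of those 128 hold it. These are matches of letters only.

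Mitochondrially encoded messages took 4.09, 4.56, 4.27 and 3.98% of TPM (mean 4.23% ± 0.249, CV 5.9%, or 12.8% with the length trend removed), and the contractile genes exceeded them 1.66, 1.52, 1.66 and 1.76 times. The 13 messages divided sharply. Those for mt-Nd1, mt-Cytb, mt-Co1, mt-Nd6, mt-Nd2, mt-Nd4 and mt-Nd5 lay between 1955 and 10932 TPM, and those for mt-Nd3, mt-Nd4l, mt-Co3, mt-Co2, mt-Atp6 and mt-Atp8 between 3.64 and 180.4. mt-Co2, a core subunit of complex IV like mt-Co1, had 14.2, 10.5, 9.32 and 7.79 TPM and mt-Atp6, of the ATP synthase, 11.1, 7.56, 7.64 and 7.58. Most of the low messages had a second copy in the annotation. mt-Co3 shared 99.8% of its 100-base windows with Gm28437, mt-Co2 99.5% with Gm28661 or Gm13341, mt-Atp6 99.5% with Gm10925, mt-Nd4l 98.5% with Gm10222 and mt-Nd3 97.6% with Gm28438. In contrast mt-Nd1, mt-Cytb, mt-Nd5 and mt-Nd6 shared 0%, mt-Nd2 3.19%, mt-Co1 30.8% and mt-Nd4 60.8%. The exception was mt-Atp8, at 3.64 TPM with no shared window, a message of 204 bases. How the counting treated reads that match several places is not given in the sources used here, so the levels of the copied messages, and with them the sum of the group, are uncertain, and whether the copies set these levels was not tested. mt-Nd6 lies on the other strand from its neighbours, and the strand setting of the counting is likewise not given.

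Nuclear genes of the respiratory chain and ATP synthase were close in sum to the mitochondrially encoded messages. Their 87 genes summed to 4.97, 3.22, 3.98 and 3.73% of TPM (mean 3.98% ± 0.734), 1.21, 0.707, 0.933 and 0.936 times the mitochondrial messages, and 85 were detected, all but the testis forms Cox7b2 and Cox8c. Cox8a and Cox6a1 of complex IV had 2142 ± 320.4 and 2032 ± 609 TPM, the ATP synthase beta subunit gene Atp5b 1551 ± 250.2, and Ndufb9, the highest of complex I, 790.4 ± 185. Ubiquitous forms stood above those of adult muscle, Cox6a1 at 4.96, 5.0, 4.51 and 5.3 times Cox6a2 and Cox7a2 at 1.87, 2.37, 1.91 and 1.96 times Cox7a1. Cox8b, the muscle form paired with Cox8a, was at 15.9, 4.41, 5.41 and 5.04 TPM. Library 1 was the highest for 70 of these genes and library 2 the lowest for 73, beside 17.5% and 14.2% of protein-coding genes above 10 TPM, and their median exon length was 1465 bases. Complex II, made of nuclear subunits only, varied least of the 5 complexes, with 1404, 1375, 1422 and 1409 TPM. Slc25a4, the heart and muscle form of the ATP carrier, stood at 2187 ± 237 TPM and its ubiquitous form Slc25a5 at 1156 ± 53.5.

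Glycolytic genes outweighed those of the citric acid cycle and of fatty acid use. The glycolysis and lactate list summed to 13336, 19445, 16418 and 16547 TPM, 4.15, 4.64, 4.44 and 4.39 times the citric acid cycle and 8.39, 16, 11.7 and 11.7 times fatty acid uptake and oxidation. All 24 of its genes were detected. Ldha, which makes lactate, had 2074, 2843, 2653 and 2483 TPM and was 7.75, 12.6, 10.5 and 9.31 times Ldhb. Slc2a1, the glucose carrier of embryonic tissue, had 907, 1029, 907 and 1046 TPM against 8.92, 10.6, 9.65 and 11.8 for the insulin-regulated Slc2a4 of adult heart. Among fatty acid genes Fabp3 (434 ± 91.2 TPM) and Etfa (243 ± 17.9) were the highest, while the muscle carnitine transferase Cpt1b had 2.61, 18.9, 9.57 and 11 and the regulator Ppara 0.164. Cpt1b shares 91.1% of its windows with Gm44502, so its level is uncertain. The citric acid cycle gene Mdh2 had 369, 380.4, 369 and 381 TPM, a CV of 1.76%.

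Cytosolic ribosomal proteins were the largest group of all those listed. Their 89 genes summed to 14.3, 10.3, 11.5 and 11.2% of TPM (mean 11.8% ± 1.75), 2.11, 1.49, 1.63 and 1.59 times the contractile genes, and 47 of them exceeded 1000 TPM. Library 1 was the highest for 66 of the 86 above 1 TPM, beside 17.5% of protein-coding genes above 10 TPM. After Rplp1 came Rps12 (4905 ± 1038 TPM) and Rpl8 (4460.4 ± 580.3). Many of these genes have processed pseudogenes, and Rplp1 shared 30% of its windows with other genes, so single levels are uncertain.

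**Figure D5:**
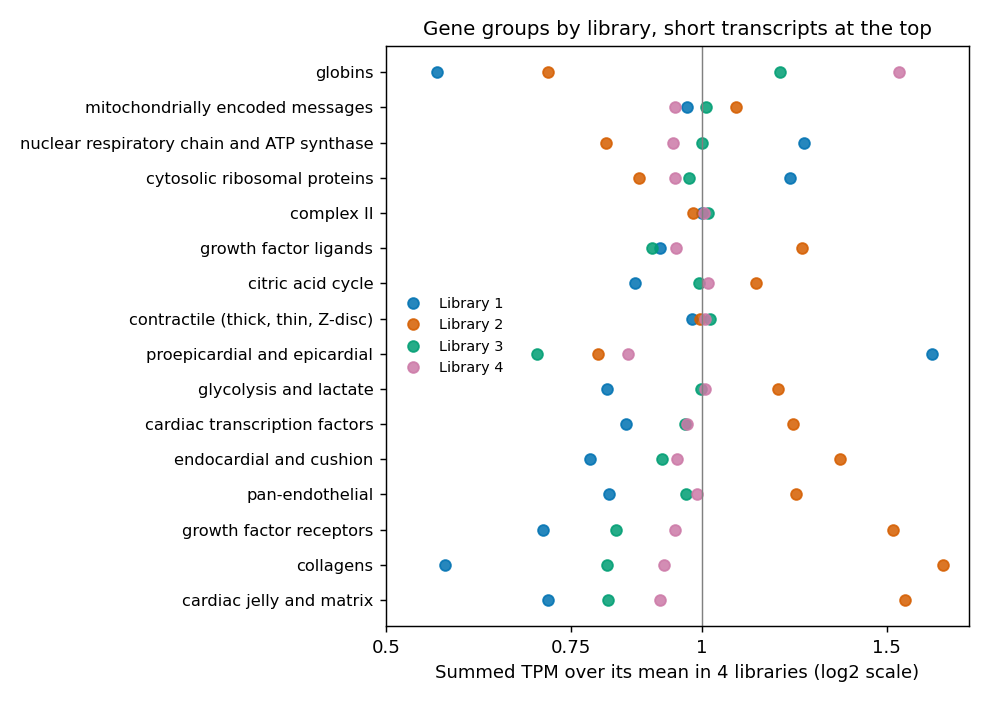
Summed TPM of 16 gene groups in each wild-type library, as a ratio to the mean of the 4 libraries (horizontal axis, log2 scale), with the groups ordered by median exon length from short (top) to long (bottom). Contractile genes and complex II stay near 1, globins are lowest in library 1 and highest in library 4, ribosomal and respiratory genes are highest in library 1, and receptors, matrix genes and collagens are highest in library 2.

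Markers of tissues next to the heart were low, but not equally so in each pool. Of 11 proepicardial and epicardial genes 8 were detected, and 7 of the 10 with a mean above 1 TPM were highest in library 1, beside 17.5% of protein-coding genes above 10 TPM. Tcf21 had 47.8, 18.8, 18.3 and 22.3 TPM, Tbx18 28.8, 10.9, 12.3 and 12.5 and the uroplakin gene Upk1b 27.9, 10.1, 6.88 and 13.7, and the summed list was 153, 73.4, 64.3 and 78.5. Wt1, the epicardial factor gene, was closer between libraries, 13.2, 8.72, 9.27 and 9.94 TPM. Of the 12 foregut genes 4 were detected, and the list, keratins included, summed to 438, 684, 390.1 and 473 TPM. The tight junction gene Cldn6 had 0.715, 43, 0.226 and 3.17 TPM, the epithelial gene Epcam 1.78, 23.4, 0.787 and 3.74, Sox2 0.164, 10.1, 0.0473 and 0.16 and Cdh1 0.0294, 5.51, 0.0319 and 1.04, while the keratin Krt8, which is not particular to gut, had 178, 269, 178 and 212. The pharyngeal homeobox gene Nkx2-6 followed with 7.95, 44.4, 5.58 and 12.5 TPM. Nkx2-1, a marker of ventral foregut, was highest in library 4 instead, at 2.84 TPM against 0.693 in library 2. Several genes of other tissues were near the floor. Of the neural tube genes, Sox1 was at 0.00657 TPM and Pax6 at 0.427, of the neural crest Sox10 at 0.792, and Myod1 of skeletal muscle had a count of 0 in all 4. Of the 8 somite genes 0 were detected, and of 10 neural tube genes only Tubb3 and Stmn2. Of the 9 neural crest genes 2 were detected, and Ednrb among them, at 30.0 ± 3.71 TPM, is also a gene of endothelium. Of 12 genes of liver and visceral endoderm 3 were detected, and the list summed to 37.5, 46.8, 26.6 and 25.9 TPM. It was led by Hhex, also a gene of endothelium, at 11.8, 22.1, 15.5 and 15.1 TPM and the apolipoprotein gene Apoa2 at 13.4, 7.1, 7.16 and 6.55. The yolk sac and liver genes Ttr and Afp had 2.26, 8.65, 1.28 and 0.856 and 4.25, 3.4, 0.144 and 0.0653 TPM, and the liver gene Alb had a mean of 0.166. The part of adjoining tissue in the levels of library 1 and library 2 was not tested.

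The cardiomyocyte, endothelial and red cell markers set down for the tissue, Tnnt2, Actc1, Myh6, Myh7, Myl7, Nkx2-5, Pecam1, Cdh5, Kdr, Hbb-y, Hbb-bh1 and Hba-x, were thus all detected, the endothelial markers at the lowest levels of the 3 classes. Sex-linked genes were also read, though the mix of sexes in each pool was not tested. The Y-linked Eif2s3y had 39.1, 39.8, 41.4 and 32.1 TPM, well above 0 in every pool, and Xist, expressed from the inactive X chromosome of females, had 4.28, 0.0177, 0.0841 and 10.5, near 0 in libraries 2 and 3.

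Among genes that code for no protein, H19 was the first after Gm23935 and Gm42418, with 5463, 9158, 6579 and 7554 TPM. Gm10736, a pseudogene of 78 bases whose sequence also occurs in Rpl41, had 3923 TPM, and the long noncoding RNA 5430431A17Rik 1439.7, 1759, 1195 and 1390.4. The mitochondrial tRNA genes summed to 7323, 4229.5, 4281 and 3783 TPM, highest in library 1, and were led by mt-Te (1149.9 ± 396) and mt-Tp (863 ± 193). They are 68.5 bases long in the median, shorter than a sequenced fragment usually is, and their levels are uncertain. By annotated class, protein-coding genes held 87.4, 94.1, 86.9 and 86.8% of TPM, features annotated as microRNA 7.21, 1.79, 8.29 and 8.24%, and long intergenic noncoding RNA 1.93, 1.57, 2.16 and 2.36%. Library 2 was the highest for protein-coding genes and the lowest for the microRNA and long intergenic noncoding classes, which does not hold for every other class.

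Genes of cell division were abundant. All 14 genes of the G2 and M phases were detected and had a mean of at least 10 TPM. Ube2c, which directs the destruction of mitotic cyclins, had 368, 296, 329 and 332 TPM, its partner gene Cdc20 147, 255, 191 and 189 and the mitotic kinase gene Cdk1 198, 156, 163 and 159.7. Mki67, the widest of the list, had 38.2, 89, 40.4 and 42.7. Hypoxia-responsive genes were likewise all detected, 13 of 13, with Slc2a1 far ahead of the mitophagy receptor gene Bnip3 (202 ± 11.7 TPM) and the oxygen-sensing hydroxylase gene Egln1 (101 ± 13.8). Bnip3 shares 33.5% of its windows with other genes, so its level is uncertain. Immediate early genes, which rise with handling of tissue, were led by Ier2 (145, 143, 137 and 137 TPM) and Jun (41.7, 72.1, 46.2 and 42.7), while Fosb stood at 0.304.

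Spread between replicates was read gene by gene. The median CV of the 8245 genes with a mean of at least 10 TPM was 19.3%, against a median of 2.1% that counting alone would give. Without library 2 this median was 12.3%, and between libraries 3 and 4 alone it was 3.84%. With all 4 libraries it was 68.2% for genes between 0.1 and 1 TPM, whose median count was 6.5, and 13.9% between 100 and 1000 TPM. A CV of at least 50% was found for 257 (3.28%) of the protein-coding genes above 10 TPM. The widest included Cldn6, the mediator subunit gene Med12 (1.32, 27.4, 5.01 and 6.64 TPM), Nkx2-6, the stretch-gated channel gene Piezo1 (2.29, 41.1, 10.6 and 11.9) and the angiogenesis inhibitor gene Vash1 (2.2, 22.4, 7.15 and 8.43), and each was highest in library 2. With libraries 1 and 2 both left out, the contractile share was 7.04%, the mitochondrially encoded share 4.13%, the globin share 1.56%, the pan-endothelial share 0.105% and the ligand share 0.398%, in the same order as with all 4.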

How the data were processed

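RNA-seq of whole hearts at E9.5 was analysed for the 4 wild-type libraries of a series of 8. Each was made from poly-A selected RNA of 3 pooled hearts, and the pools were kept apart, which the labels number as replicates. Per the labels, the authors trimmed reads with Trimmomatic 0.36 and aligned them with STAR 2.5.2b to the GRCm38 (mm10) genome, and they deposited the raw count of each gene with the summed length of its exons. The counting tool, its treatment of reads with several matches and its strand setting are not given in the sources used here.

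From the deposited counts, TPM was computed here as count per base of summed exon length, scaled to a total of 1000000 per library, with mean, SD and CV over the 4 libraries. Symbols and types came from GENCODE M21 (49056 of 49315 gene identifiers matched), upstream sequences from RefSeq (GRCm38.p6). Detection meant at least 1 TPM in all 4 libraries. Spread was read for genes with a mean of at least 10 TPM. The length trend was taken out by subtracting each library's median log2 deviation over 20 bins of exon length. Transcripts were cut into windows of 100 bases, and a window was called shared where the same bases occurred in a transcript of another gene, on either strand. The 3 ratios tested were compared with 1 by an exact two-sided sign-flip permutation of the log2 values. Group lists and members were chosen with earlier results of these data known. Named genes were the 20 of highest mean, up to 5 of highest mean, the lowest and the most variable (of at least 1 TPM) of each list, the 15 of widest spread above 10 TPM, and the 10 most abundant that code for no protein, and the other named list members were chosen after their values were seen. Some genes within this rule are not reported here. The steps were tested on simulated counts. Alternatives were other lengths, totals, thresholds and scalings (TMM and RLE of edgeR 4.0.16), and leaving out each library. Python 3.11.15, pandas 2.3.3, numpy 2.4.6 and R 4.3.3 were used. Depth ran from 33359322 to 49523086 counts, at which 3 counts, the limit set for a count of 0, are 0.0606 to 0.0899 in CPM. The labels do not say that pools came from separate litters, so the spread is that between these pools.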

Additional observations from a re-analysis of the deposited data

Results flagged for a closer look

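Of 233 values given above (levels of genes and summed lists, shares and ratios), 27 had 1 library far from the other 3, 11.6%. Chance flags about 1 in 20 groups, but many of these genes were named for their wide spread or after their values were seen, and sums overlap with their members, so this share is not comparable with that rate. The library was library 2 in 17 cases and library 1 in 10, each time as the highest, and never library 3 or 4. What set these libraries apart was not tested.

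In library 2, some genes of foregut and pharynx stood apart, whereas Nkx2-1 was highest in library 4. Cldn6 had 43 TPM against 0.226 to 3.17, Epcam 23.4 TPM against 0.787 to 3.74, Sox2 10.1 TPM against 0.0473 to 0.164 and Tbx1 22.3 TPM against 1.86 to 2.97. Fgf3, a ligand of pharyngeal tissue among others, had 3.8 TPM against 0.116 to 0.272. The summed somite genes reached 12.1 TPM against 3.28 to 3.72. Sox1 had 0.0263 TPM against 0 in the others, a level below the 3 counts that a count of 0 allows, so no difference can be read from it. The signalling genes Jag1 and Tgfb2 had 46.9 TPM against 26.6 to 28.8 and 63.2 TPM against 42.9 to 44.8, and the summed growth factor ligands had 5381 TPM against 3878 to 4088, a share of 0.538% against 0.388 to 0.409. Fn1 was at 312 TPM against 102 to 136, Ttn at 44.9 TPM against 17.6 to 22, Mki67 at 89 TPM against 38.2 to 42.7 and the eye and neural factor gene Pax6 at 0.793 TPM against 0.279 to 0.319. These 4 have long exons (11685, 116825, 10061 and 11694 bases), the class in which the median of library 2 was highest, at 1.44 times the geometric mean of the libraries. Jun had 72.1 TPM against 41.7 to 46.2 and Egln1 122 TPM against 92.9 to 95.8.

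In library 1, the summed epicardial genes reached 153 TPM against 64.3 to 78.5, with Tcf21 at 47.8 TPM against 18.3 to 22.3 and Tbx18 at 28.8 TPM against 10.9 to 12.5. Sox9, a gene of mesenchyme, had 37.4 TPM against 12.5 to 16.6. The apolipoprotein gene Apoa2 had 13.4 TPM against 6.55 to 7.16. The muscle forms Sln and Cox8b had 1.07 TPM against 0.289 to 0.406 and 15.9 TPM against 4.41 to 5.41. Rpl8 had 5327 TPM against 4093 to 4228, mt-Atp6 11.1 TPM against 7.56 to 7.64 and the summed mitochondrial tRNA genes 7323 TPM against 3783 to 4280.5. Tcf21, Apoa2, Sln, Cox8b, Rpl8 and mt-Atp6 have summed exons of 1223, 537, 1318, 360, 862 and 681 bases, the shortest class. In that class the median of library 1 was the highest, at only 1.06 times the geometric mean of the libraries.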

How the results depend on the processing

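No paired analysis was possible because all libraries described here are of 1 genotype, and the replicate numbers that both genotypes share pair nothing within it. The order of the group shares, contractile above mitochondrially encoded, globin, ligand and pan-endothelial, was the same for TPM under each length, total and left-out library tried. Where the total left out mitochondrially encoded genes, this covers the other groups only.

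By share of counts in place of TPM, the 10 most abundant genes held 5.81%, the 100 most abundant 21%, contractile genes 6.19%, mitochondrially encoded messages 1.91%, globins 0.327%, pan-endothelial genes 0.163% and ligands 0.613%, so ligands then stood above globins, whose exons are shorter. The contractile share was 7.67% with effective length, 7.3% without mitochondrially encoded genes in the total, 7.84% over protein-coding genes, 7.54% without features under 200 bases and 7.81% with the longest coding transcript. The mitochondrially encoded share was 4.85, 4.76, 4.57 and 3.18% with effective length, protein-coding genes, features under 200 bases left out and the longest coding transcript. The 10 most abundant genes held 10.5% over protein-coding genes and 10.7% without features under 200 bases.

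The mean log2 ratio of Myh7 to Myh6 reversed to 0.19 by counts and 0.16 with the longest coding transcript, and that of Myl7 to Myl2 moved to 3.10 with effective length, 0.93 by counts and 1.52 with the longest coding transcript. The median spread was 42.3% over all genes with a count, 12.5% with the length trend removed and 3.84% between libraries 3 and 4 alone. A separate calculation over the 8245 genes with a mean of at least 10 TPM gave a median of 11.7% with the trend removed. Why it differs from 12.5% was not tested. The median spread was 19.3% by TPM, 14.2% with TMM, 14.2% with RLE and 14.6% with counts scaled by depth alone. Of the values outside the main results that were recomputed with TMM, 102 moved and 53 stayed the same. RLE gave the same numbers, and counts scaled by depth alone gave 82 and 73. The CVs of single genes given above, and their order, are those of TPM and may differ under these scalings. Settings with the longest coding transcript, counts without length, the length trend, short features or libraries 1 and 2 left out were chosen after seeing the data.

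Leaving out 1 library at a time gave 13291 to 13742 detected genes, shares of 14.1 to 16.3% and 34.8 to 37.6% for the 10 and 100 most abundant, 6.92 to 7.0% for contractile, 4.12 to 4.31% for mitochondrially encoded, 0.938 to 1.31% for globins, 0.0987 to 0.113% for pan-endothelial and 0.397 to 0.447% for ligands, mean log2 ratios of -0.32 to -0.12 (Myh7 to Myh6), 2.58 to 2.73 (Myl7 to Myl2) and 3.69 to 3.88 (embryonic to adult globins), and a median spread of 12.3 to 22.6%, the lowest without library 2. Depth limits genes below about 1 TPM, and of the 3 ratios between genes or groups, that of Myh7 to Myh6 changed its order with the length.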

Other observations

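The CV of the summed level fell for 39 of 53 lists, some of which share genes, once the length trend was removed, and rose for 14. The CV of the summed pan-endothelial, calcium handling, glycolysis and citric acid cycle genes was 17.1, 20.2, 15.2 and 10.8% by TPM, and 2.77, 5.53, 3.63 and 2.89% with the length trend removed. That of the mitochondrially encoded messages rose from 5.9 to 12.8%, that of the ventricular list from 6.17 to 12.8% and that of the mitochondrial biogenesis and dynamics genes from 3.47 to 11.9%. The embryonic globins (47.8%) and the epicardial genes (52%) kept a wide spread without it.

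Of the proteins of the mitochondrial ribosome, which nuclear genes encode, all 78 listed genes were detected, with a median CV of 9.36%. Its highest member was Mrpl42, with 592, 495, 569.7 and 562 TPM, and the summed list had 8445, 7053, 7513 and 7355 TPM.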
